A study of Mus musculus with 10 samples.

Results

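Described here are 37 genes of fibroblasts, smooth muscle, endothelium and extracellular matrix, of 35275 measured by RNA sequencing of isolated jejunal epithelial cells. They were chosen by name, as 5 fibrillar collagens, 3 basement membrane collagens, 4 genes of collagen VI and a fibril-associated collagen, 11 genes of matrix glycoproteins, proteoglycans and a lysyl oxidase, 5 fibroblast and mesenchymal cell genes, 5 smooth muscle genes and 4 endothelial genes. All 10 mice were adult C57BL/6 mice of the genotype VillinCreERT2;MYO5Bflox/flox, which carry floxed alleles of the motor protein myosin Vb and a tamoxifen-inducible Cre recombinase. The villin promoter drives this Cre in the intestinal epithelium, so the cells that make most of the genes described here were not its target. The 3 control mice (numbers 2, 4 and 5) received corn oil and no tamoxifen, so that tamoxifen differed between control and knockout mice as well as MYO5B. The 4 MYO5B-knockout mice (numbers 3, 5, 6 and 7) received 2 mg of tamoxifen and the vehicle, 0.1% bovine serum albumin in phosphate-buffered saline. Another 3 MYO5B-knockout mice (numbers 1, 4 and 5) received the same tamoxifen and intraperitoneal lysophosphatidic acid (LPA, 3 mg/kg), a signalling phospholipid. The labels of LPA-treated mouse 1 conflict, since one line of its description names vehicle and another names LPA. It was grouped by its title, which is of the form used for the other LPA-treated mice. Values for the LPA-treated group are therefore also given without it. Cells were taken on day 4 with fine forceps in cold saline containing 10 mM EDTA, with no sorting step named. The comparisons ask how the 37 genes differed after loss of MYO5B and after LPA.

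The wall of the small intestine holds the epithelium on a basement membrane of type IV collagen and laminin, with a loose connective tissue, the lamina propria, below it. Fibroblasts there secrete fibrillar collagens, collagen VI and small proteoglycans, smooth muscle strands and pericytes surround crypts and vessels, and blood and lymphatic endothelium line the vessels of each villus. A preparation of epithelial cells can hold fragments of this tissue. In bulk RNA, fewer cells of a type and less RNA per cell cannot be told apart.

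Between 10949420 and 24470409 reads per library lay on genes, and for a gene 1 kb long, each read was worth between 0.0409 and 0.0913 FPKM (a read count scaled to the length of the gene and the depth of the library). Control mouse 2 and MYO5B-knockout mouse 3 gave libraries that were poor in detected genes, with 12242 and 12601, against 17309 to 18267 in the other 8, and mitochondrial genes took 17.4% and 18% of their reads, against at most 3.5%. MYO5B-knockout mouse 3 and LPA-treated mouse 1, both labelled as male, had Xist levels of 8.41 and 15.1 FPKM and no read (0) on any of 4 Y-linked genes. Results are therefore also given without each of these pairs of libraries. Myo5b lay between 16.5 and 32 FPKM in the control mice, between 10.5 and 13.6 FPKM in the MYO5B-knockout mice and between 10.3 and 11.7 FPKM in the LPA-treated mice. The preparations were epithelial in all 10 libraries, in which 15 epithelial markers summed to between 12959 and 18746 FPKM.

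Most of the 37 genes were near the limit of detection. The mean over the 10 libraries was below 1 FPKM for 30 of the genes, and the median number of reads was below 20 for 26 of them. Only Fbln1, Vim, Tagln, Lyve1, Adamdec1, Thy1 and Sparc had a mean of at least 1 FPKM. Per 1000000 reads on genes (RPM), the 37 genes took between 289 and 368 reads in control mice, between 60.6 and 87.3 in MYO5B-knockout mice and between 82.4 and 155 in LPA-treated mice. A single gene, Fbln1, made up between 73% and 91.6% of these reads in control mice, between 38.6% and 61.5% in MYO5B-knockout mice and between 16.4% and 43.8% in LPA-treated mice. Without Fbln1 the ranges were 31 to 78.2 RPM in control mice, 25.4 to 47.5 in MYO5B-knockout mice and 46.3 to 130 in LPA-treated mice. The first 2 groups thus overlapped, while the LPA-treated range reached from among the knockout values to above all others. In tests across genes, 25 of the 37 entered, those with a mean of at least 0.1 FPKM, and the remaining 12 (Col5a1, Col5a2, Col15a1, Col14a1, Lum, Fbn1, Postn, Mfap5, Dpt, Lox, Cdh5 and Kdr) are given by their reads.

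**Figure D1:**
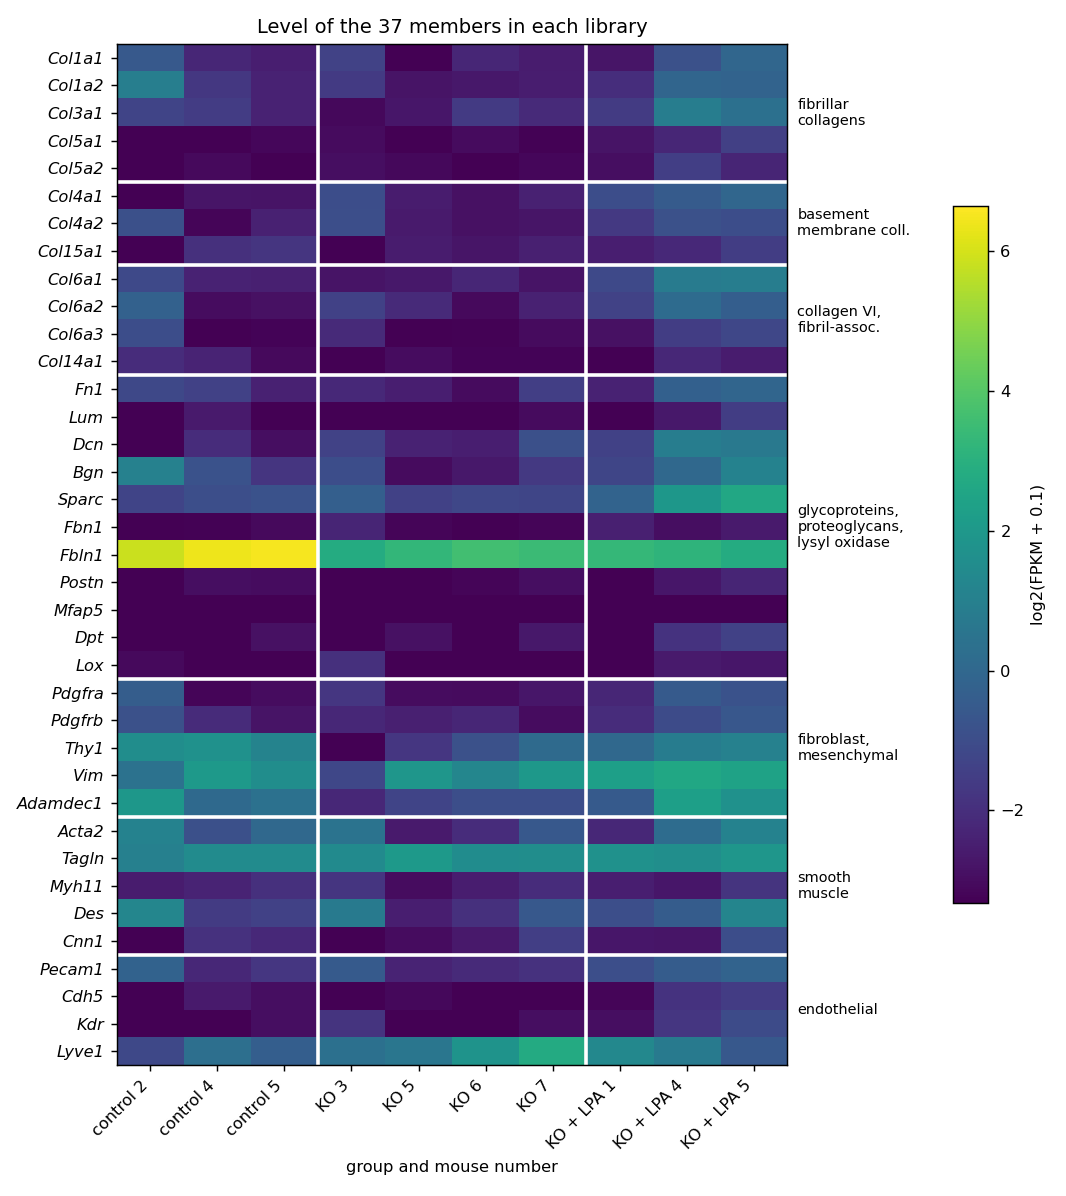
Colour gives log2(FPKM + 0.1) of each of the 37 genes (rows, grouped by role) in each of the 10 libraries (columns, by group and mouse number; KO, MYO5B-knockout). Fbln1 stands out in the 3 control libraries, at 57.7 to 92.1 FPKM. Of the 25 genes tested, 7 have their 2 highest values in LPA-treated mice 4 and 5, against 5.04% of all 15729 genes.

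Between MYO5B-knockout and control mice, Fbln1 was the only gene of the 25 tested that passed the adjusted threshold of limma. It was lower in each of the 4 knockout libraries than in each of the 3 control libraries. The collagens, smooth muscle genes and fibroblast genes that were tested did not pass. Thy1 and Adamdec1 were lower and Lyve1 was higher in every knockout library than in every control library, but these differences did not pass the adjusted threshold. Of the 25 genes tested, 1 passed limma's adjusted p of 0.05, in the lower direction, against 2.01% of all 15729 genes tested (1.13% higher and 0.884% lower). The groups did not overlap for 1 gene on the higher side and 3 genes on the lower side, against 11% and 6.2% of all genes. The median log2 fold change of the 25 genes was -0.44, with 4 of them above 0 and 21 below, and the median of all genes was 0.29, with 63.4% of them above 0. The median of the 25 genes was -0.16 without control mouse 2, -0.84 without control mouse 5, and -0.19 with control mouse 2 and MYO5B-knockout mouse 3 left out, when that of all genes was 0.21. After median-ratio scaling these medians were -0.65 and 0.039, and 223 of all genes passed as higher and 375 as lower, against 177 and 139 without it. Without the filter on low values, 26 of 36 genes were below 0. Unless another pseudocount is named, limma's fold changes are on the log2(FPKM + 0.1) scale, which understates the change of genes with few reads. Those of edgeR and DESeq2 come from the recovered reads without this addition.

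Fbln1 (ENSMUSG00000006369, chromosome 15 from 85205949 to 85286535, plus strand, GRCm38) encodes fibulin 1, a secreted glycoprotein of basement membranes and elastic fibres. It was present at 57.7, 83.3 and 92.1 FPKM across control mice 2, 4 and 5. In MYO5B-knockout mice 3, 5, 6 and 7 its level was 6.84, 9.62, 12.1 and 10.9 FPKM, and in LPA-treated mice 1, 4 and 5 it was 9.85, 8.94 and 6.97 FPKM. Every knockout library, with or without LPA, thus lay below every control library by a wide gap, and the LPA-treated and the other knockout libraries overlapped. The means were 77.7 ± 17.9 FPKM (SD, n = 3), 9.86 ± 2.26 FPKM (SD, n = 4) and 8.59 ± 1.47 FPKM (SD, n = 3). Between MYO5B-knockout and control mice its log2 fold change was -2.97 ± 0.30 (SE, limma's adjusted p = 0.00137). It rests on 12927 reads in the control libraries and 2685 in the MYO5B-knockout libraries, and once control mouse 2 and MYO5B-knockout mouse 3 were left out it was -3.00 (limma's adjusted p = 0.00211). Between LPA-treated and other MYO5B-knockout mice the log2 fold change was -0.18 (95% interval -0.84 to 0.48, limma's adjusted p = 1). Fbln1 did not follow the 12 collagens, whose sums were highest in LPA-treated mice 4 and 5, at 7.65 and 7.61 FPKM. Which cells the reads of Fbln1 came from was not tested.

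To show the region from which the most changed of these genes is transcribed, the 250 bases before the annotated start of Fbln1 are printed, with those of Col3a1, a fibroblast collagen with few reads here, for comparison. Both come from RefSeq on GRCm38.p6, both on the plus strand, at chr15:85205699-85205948 for Fbln1 and chr1:45311288-45311537 for Col3a1, and neither window holds an annotated exon. Capitals mark the sequences CACGTG (an E-box, its own reverse complement), CCAAT and TATAAA, searched on both strands.
Fbln1: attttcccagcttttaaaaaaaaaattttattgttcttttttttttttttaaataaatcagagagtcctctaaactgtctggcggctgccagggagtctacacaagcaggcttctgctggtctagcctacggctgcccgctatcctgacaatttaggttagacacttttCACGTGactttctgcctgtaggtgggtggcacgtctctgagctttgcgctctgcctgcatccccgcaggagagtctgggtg
Col3a1: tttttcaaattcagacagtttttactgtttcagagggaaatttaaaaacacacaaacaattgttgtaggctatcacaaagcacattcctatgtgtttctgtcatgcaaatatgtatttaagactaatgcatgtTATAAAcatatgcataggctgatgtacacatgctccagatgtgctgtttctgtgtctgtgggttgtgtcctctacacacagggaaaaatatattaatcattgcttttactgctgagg
The Fbln1 window, with 46.4% G and C, holds 1 CACGTG, which starts 81 bases before the start site, and neither CCAAT nor TATAAA. In the Col3a1 window, with 35.2% G and C, there is 1 TATAAA, 117 bases before the start. Of 32851 promoter windows of the same length, 6.02% hold CACGTG, 33.8% CCAAT and 12.4% TATAAA. Of the 37 genes, 21 had a window, and of these 1 held CACGTG (Fbln1), 5 CCAAT (Vim, Col1a2, Col4a1, Col4a2 and Cnn1) and 3 TATAAA (Col3a1, Vim and Postn). These matches describe letters in the windows and no more.

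Among the fibroblast and mesenchymal genes, Thy1, Adamdec1 and Vim were the most abundant. Thy1 encodes a cell surface glycoprotein of fibroblasts that mouse T cells carry as well, and it was chosen for values in every library after these had been seen. It was present at 2.82, 3.18 and 2.07 FPKM across control mice 2, 4 and 5, at 0, 0.201, 0.451 and 0.997 FPKM across MYO5B-knockout mice 3, 5, 6 and 7, then at 0.919, 1.70 and 1.99 FPKM across LPA-treated mice 1, 4 and 5. Both knockout groups lay below the control libraries without overlap, and they overlapped with each other. Thy1 had a log2 fold change of -2.91 ± 0.74 in MYO5B-knockout against control mice (SE, limma's adjusted p = 0.0718), which became -2.24 once control mouse 2 and MYO5B-knockout mouse 3 were left out (limma's adjusted p = 0.073). It passed the threshold in 4 alternatives, with an adjusted p of 0.0325 for limma with a pseudocount of 1, 0.0401 for limma after median-ratio scaling, 0.0248 for limma after quantile normalization and 0.00257 for DESeq2. Of all 15729 genes, 399, 598, 804 and 1854 passed in these 4, in the same order, against 316 without these changes. Beside it, 25 leukocyte markers summed to between 466 and 631 FPKM in the control mice, between 32.9 and 182 FPKM in the MYO5B-knockout mice and between 93.8 and 174 FPKM in the LPA-treated mice, and 4 of them passed the test as lower in MYO5B-knockout mice (Cd7, Cd52, Cd79a and Gzma). Gzma alone lay at 320, 226 and 331 FPKM across control mice 2, 4 and 5. Single T cell markers differed in direction after LPA, where Thy1 had a log2 fold change of 2.09 against the other knockout mice. There Cd3e, Cd3g, Cd7, Cd8a and Lck gave -1.15, -0.47, -0.87, -1.03 and -0.91. Cd3d, Trac and Cd2 gave 0.67, 1.17 and 1.31, and 0 of the 25 leukocyte markers passed limma's adjusted threshold. The part of leukocytes in the values of Thy1 was not tested.

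Adamdec1 encodes a metalloproteinase of lamina propria fibroblasts and macrophages. Its level was 3.73, 0.964 and 1.20 FPKM across control mice 2, 4 and 5, and 0.113, 0.311, 0.424 and 0.420 FPKM across MYO5B-knockout mice 3, 5, 6 and 7. In LPA-treated mice 1, 4 and 5 it was 0.607, 4.89 and 3.16 FPKM. The MYO5B-knockout libraries thus lay below all other libraries, while the control and LPA-treated ranges overlapped. Adamdec1 had a log2 fold change of -2.15 ± 0.75 in MYO5B-knockout against control mice (SE, limma's adjusted p = 0.171), which became -1.29 once control mouse 2 and MYO5B-knockout mouse 3 were left out. With DESeq2 on the recovered reads it was -3.22 with an adjusted p of 0.00302. DESeq2 called 1854 of all 15729 genes in this comparison, against 316 with limma.

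Vim encodes vimentin, the intermediate filament of mesenchymal cells, leukocytes and endothelium. It was present at 1.24, 4.06 and 2.86 FPKM across control mice 2, 4 and 5, at 0.333, 3.70, 2.30 and 3.92 FPKM across MYO5B-knockout mice 3, 5, 6 and 7, then at 4.90, 5.96 and 5.24 FPKM across LPA-treated mice 1, 4 and 5. The lowest values in the first 2 groups came from the libraries that detected few genes, and all 3 LPA-treated libraries lay above all others. For Vim the log2 fold change in MYO5B-knockout against control mice was -0.35 (95% interval -2.00 to 1.30, limma's adjusted p = 0.846). Pdgfra and Pdgfrb, the receptors for platelet-derived growth factors on fibroblasts and pericytes, stayed between 0.00989 and 0.675 FPKM and between 0.0245 and 0.554 FPKM over the 10 libraries.

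Of the endothelial genes, Lyve1, a hyaluronan receptor of lymphatic endothelium and of some macrophages, had the highest level. It was present at 0.347, 1.15 and 0.679 FPKM across control mice 2, 4 and 5, at 1.19, 1.42, 3.38 and 6.75 FPKM across MYO5B-knockout mice 3, 5, 6 and 7, then at 2.45, 1.64 and 0.576 FPKM across LPA-treated mice 1, 4 and 5. The MYO5B-knockout libraries lay above the control libraries by a narrow gap and spread over a wide range, which the LPA-treated libraries overlapped. Its log2 fold change in MYO5B-knockout against control mice was 1.79 ± 0.71 (SE, limma's adjusted p = 0.226), 1.75 once control mouse 2 and MYO5B-knockout mouse 3 were left out, and 1.90 with DESeq2 (adjusted p = 0.0428). In this comparison DESeq2 called 1854 of all genes, against 316 with limma. Other genes of lymphatic endothelium were at or near 0 in the same libraries. Prox1, its defining transcription factor, lay between 0 and 0.154 FPKM, and Flt4, its receptor for vascular endothelial growth factor C, between 0 and 0.132 FPKM.

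Pecam1 encodes an adhesion molecule of endothelium, platelets and leukocytes. Its values were 0.789, 0.113 and 0.199 FPKM across control mice 2, 4 and 5, 0.610, 0.101, 0.128 and 0.167 FPKM across MYO5B-knockout mice 3, 5, 6 and 7, and 0.428, 0.638 and 0.807 FPKM across LPA-treated mice 1, 4 and 5. The highest value of the control and of the MYO5B-knockout group came from the library that detected few genes, and the 3 groups overlapped. The difference for Pecam1 was -0.33 on the log2 scale in MYO5B-knockout against control mice (95% interval -1.77 to 1.11, limma's adjusted p = 0.832). Kdr, the main receptor for vascular endothelial growth factor A, had between 0 and 30 reads in a library, and Cdh5, the cadherin of endothelial junctions, between 0 and 13. Both genes had their most reads in LPA-treated mice 4 and 5.

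**Figure D2:**
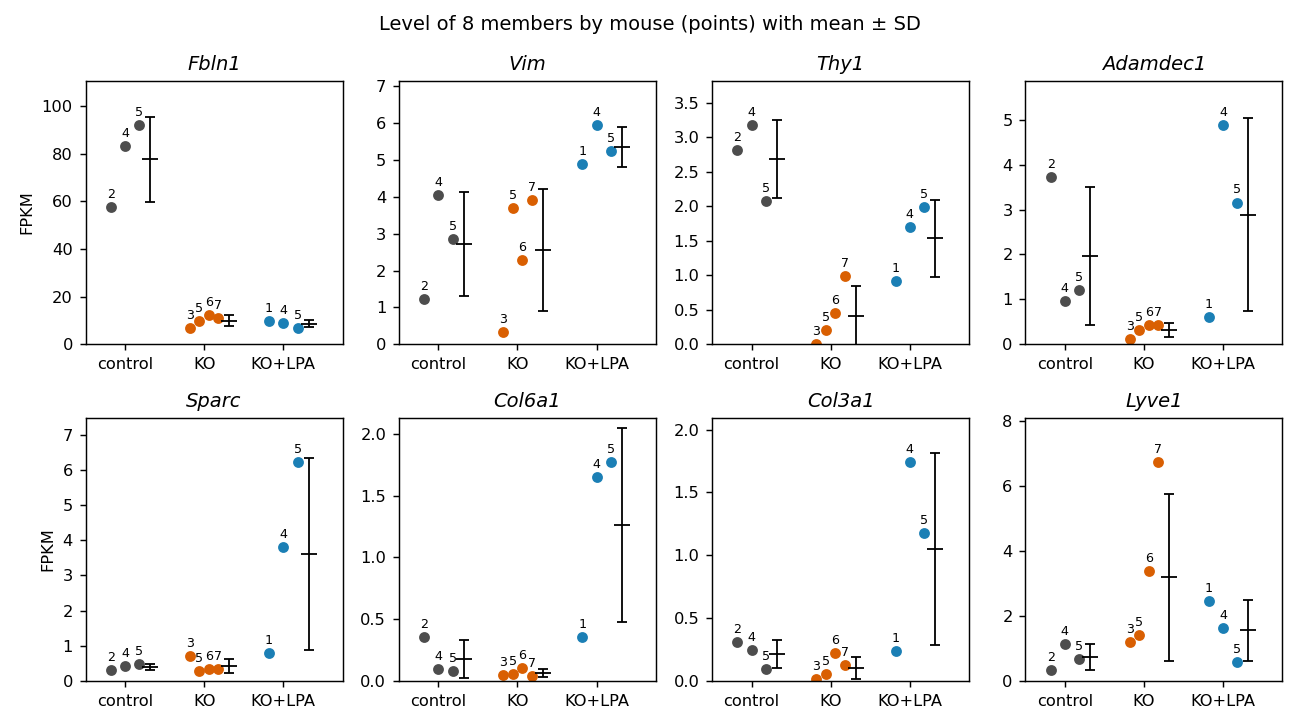
Level in FPKM (vertical axes, linear from 0) of 8 genes in each mouse (points with mouse numbers), with the mean and SD of each group beside them. Fbln1 separates the 3 control mice from the 7 knockout mice, and Sparc, Col6a1 and Col3a1 are highest in LPA-treated mice 4 and 5.

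None of the 5 smooth muscle genes passed the test in any comparison. Tagln, which encodes the actin-binding protein transgelin, had the most even level, with 1.94, 2.70 and 2.70 FPKM across control mice 2, 4 and 5, 2.59, 3.95, 2.81 and 2.82 FPKM across MYO5B-knockout mice 3, 5, 6 and 7, and 3.22, 2.92 and 3.64 FPKM across LPA-treated mice 1, 4 and 5. The control and LPA-treated libraries did not overlap and the MYO5B-knockout libraries overlapped with both. Tagln shares 108 exon bases, 5.43% of its exons, with Pcsk7 on the opposite strand. Pcsk7 had 790% as many reads. Since the strand setting of the counting is not stated, reads of the 2 genes in the shared bases cannot be told apart, and the level of Tagln is uncertain to that extent. Acta2, the smooth muscle actin, followed another order, with 2.03, 0.438 and 0.930 FPKM across control mice 2, 4 and 5, 1.28, 0.0651, 0.137 and 0.573 FPKM across MYO5B-knockout mice 3, 5, 6 and 7, and 0.115, 1.04 and 2.06 FPKM across LPA-treated mice 1, 4 and 5. The groups overlapped, the libraries that detected few genes were the highest of their groups, and the log2 fold change between MYO5B-knockout and control mice was -1.27 (95% interval -3.41 to 0.86, limma's adjusted p = 0.531). Des, the muscle intermediate filament desmin, likewise had its highest control and MYO5B-knockout values in these libraries, 2.30 and 1.60 FPKM, against at most 0.283 and 0.571 FPKM in the other mice of these groups. Myh11, the smooth muscle myosin heavy chain, and Cnn1, the actin-binding calponin 1, stayed at or below 0.193 and 0.412 FPKM.

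Between LPA-treated and other MYO5B-knockout mice, no gene of the 37 passed the test, and no gene of the 15729 tested did. The collagens other than Col4a2, the proteoglycans, Sparc and the fibroblast genes had higher values in both LPA-treated mice 4 and 5 than in each of the 4 MYO5B-knockout mice, although none of them passed the test. LPA-treated mouse 1 was below both other LPA-treated mice for 30 of the 36 genes with a read. The share of all genes with either order was not counted, so neither can be read as particular to these genes. With limma, 0 of 25 genes passed an adjusted p of 0.05 (0% of all genes), edgeR also called 0 genes in all and DESeq2 6, of which Col6a1 was 1. At an unadjusted p of 0.05, 9 of the 25 genes were higher and 0 lower, against 2.52% of all genes higher and 0.401% lower. The groups did not overlap for 7 genes, all on the higher side (Adamdec1, Col3a1, Col6a1, Col6a2, Pdgfrb, Sparc and Vim), where 3.56% of all genes lay. The log2 fold change was above 1 for 19 of the 25 genes, against 7.57% of all genes, and the median was 1.39, against 0.11. It was above 0 for 22 of the 25, against 60.7% of all genes. Without LPA-treated mouse 1 the median was 1.93. The 25 genes passed a filter on the mean over all libraries, to which high values in 2 libraries contribute. Of the 36 genes with a read, none removed by the filter, 33 were above 0 and the median was 1.08, against 0.094 for all genes in the table with a read.

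Sparc (ENSMUSG00000018593, chromosome 11 from 55394500 to 55420080) encodes a collagen-binding matricellular protein of fibroblasts and endothelium. It was present at 0.315, 0.424 and 0.472 FPKM across control mice 2, 4 and 5, and at 0.715, 0.277, 0.340 and 0.328 FPKM across MYO5B-knockout mice 3, 5, 6 and 7. In LPA-treated mice 1, 4 and 5 its level was 0.800, 3.79 and 6.23 FPKM, which corresponds to 45, 151 and 191 reads. The LPA-treated libraries lay above all others, with mouse 1 just above MYO5B-knockout mouse 3. The log2 fold change between LPA-treated and other MYO5B-knockout mice was 2.52 (95% interval 1.05 to 3.99, limma's unadjusted p = 0.00327 and adjusted p = 1), and leaving out single mice gave values between 1.93 and 3.34.

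Single collagens differed in which library was highest, with Col1a2, Col6a3 and Col14a1 highest in control mouse 2. Summed over the 12 collagens, the level was 4.81, 1.03 and 0.740 FPKM across control mice 2, 4 and 5, 1.87, 0.527, 0.667 and 0.671 FPKM across MYO5B-knockout mice 3, 5, 6 and 7, and 1.89, 7.65 and 7.61 FPKM across LPA-treated mice 1, 4 and 5. LPA-treated mice 4 and 5 had the highest sums, followed by control mouse 2, and LPA-treated mouse 1 lay just above MYO5B-knockout mouse 3. In reads, the 12 collagens took 262, 732 and 574 reads in LPA-treated mice 1, 4 and 5, against 50 to 128 in the MYO5B-knockout mice and 72 to 309 in the control mice. Of the 12 collagens, 5 had their 2 highest values in LPA-treated mice 4 and 5, and 13 of all 36 genes with a read had theirs there. Of the 25 genes tested these were 7, against 5.04% of all 15729 genes.

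Among the fibrillar collagens, which form the tensile fibres of connective tissue, Col3a1 and Col1a2 had the highest levels. Col3a1 (chromosome 1 from 45311538 to 45349706) had levels of 0.309, 0.245 and 0.0924 FPKM across control mice 2, 4 and 5, at 0.0164, 0.0521, 0.220 and 0.127 FPKM across MYO5B-knockout mice 3, 5, 6 and 7, then at 0.235, 1.75 and 1.17 FPKM across LPA-treated mice 1, 4 and 5. All LPA-treated libraries lay above the MYO5B-knockout libraries, mouse 1 by a small margin, and the log2 fold change was 2.28 (95% interval 0.79 to 3.78, limma's unadjusted p = 0.00644 and adjusted p = 1). Col1a2, the second chain of type I collagen, was present at 1.83, 0.207 and 0.0961 FPKM across control mice 2, 4 and 5, at 0.222, 0.0434, 0.0549 and 0.0746 FPKM across MYO5B-knockout mice 3, 5, 6 and 7, then at 0.145, 0.854 and 0.800 FPKM across LPA-treated mice 1, 4 and 5. Control mouse 2 had the highest value and the groups overlapped. Its log2 fold change was 1.66 between LPA-treated and other MYO5B-knockout mice (95% interval -0.17 to 3.50, limma's adjusted p = 1). Col1a1, the partner chain, also overlapped between groups and stayed at or below 0.873 FPKM.

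Collagen VI, a microfibril around cells of the connective tissue, is made of chains from Col6a1, Col6a2 and Col6a3. Col6a1 (chromosome 10 from 76708792 to 76726168) had levels of 0.353, 0.0951 and 0.0836 FPKM across control mice 2, 4 and 5, at 0.0446, 0.0566, 0.107 and 0.0433 FPKM across MYO5B-knockout mice 3, 5, 6 and 7, then at 0.359, 1.65 and 1.78 FPKM across LPA-treated mice 1, 4 and 5. It had between 2 and 9 reads in each MYO5B-knockout library and 36, 117 and 97 reads in the LPA-treated libraries, which lay above all others. The log2 fold change between LPA-treated and other MYO5B-knockout mice was 2.83 (95% interval 1.47 to 4.19, limma's unadjusted p = 0.000855 and adjusted p = 1), the largest of the 25 genes tested. DESeq2 on the recovered reads gave 4.34 with an adjusted p of 0.0065. Col6a2 was present at 0.756, 0.0264 and 0.0349 FPKM across control mice 2, 4 and 5, at 0.279, 0.130, 0.0199 and 0.0903 FPKM across MYO5B-knockout mice 3, 5, 6 and 7, then at 0.291, 1.01 and 0.688 FPKM across LPA-treated mice 1, 4 and 5. Its LPA-treated libraries lay above the MYO5B-knockout libraries, mouse 1 by a small margin, with a log2 fold change of 1.73 (limma's unadjusted p = 0.0452 and adjusted p = 1). Col6a3, the third chain, overlapped between the groups and had at most 46 reads.

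The basement membrane collagens Col4a1 and Col4a2, which encode the chains of the type IV network under epithelium and endothelium, lie head to head on chromosome 8 and share 22 exon bases. Col4a1 was present at 0, 0.0491 and 0.0432 FPKM across control mice 2, 4 and 5, at 0.414, 0.0701, 0.0370 and 0.0871 FPKM across MYO5B-knockout mice 3, 5, 6 and 7, then at 0.408, 0.629 and 0.874 FPKM across LPA-treated mice 1, 4 and 5. MYO5B-knockout mouse 3 was the only knockout library without LPA to reach the LPA-treated range, and the log2 fold change of 1.71 between these groups (limma's unadjusted p = 0.0117 and adjusted p = 1) became 2.12 without that mouse. Col4a2 was present at 0.435, 0.0101 and 0.0885 FPKM across control mice 2, 4 and 5, at 0.425, 0.0629, 0.0379 and 0.0481 FPKM across MYO5B-knockout mice 3, 5, 6 and 7, then at 0.215, 0.448 and 0.407 FPKM across LPA-treated mice 1, 4 and 5. Here the libraries with few detected genes reached the level of LPA-treated mice 4 and 5. The log2 fold change was 1.12 (95% interval -0.39 to 2.63, limma's adjusted p = 1).

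Of the proteoglycans, Dcn encodes decorin, which coats collagen fibrils, and was chosen for values in every library after these had been seen. It was present at 0, 0.138 and 0.0303 FPKM across control mice 2, 4 and 5, at 0.291, 0.0923, 0.0778 and 0.447 FPKM across MYO5B-knockout mice 3, 5, 6 and 7, then at 0.282, 1.75 and 1.55 FPKM across LPA-treated mice 1, 4 and 5. These values rest on 5, 31 and 109 reads in the 3 groups, and the LPA-treated libraries lay above the control libraries while mouse 1 fell within the range of the MYO5B-knockout libraries. The log2 fold change was 1.85 between LPA-treated and other MYO5B-knockout mice (standard error 0.70, limma's unadjusted p = 0.024 and adjusted p = 1). Bgn, which encodes the related biglycan, and Fn1, which encodes fibronectin, ranged from 0.0218 to 2.03 FPKM and from 0.0235 to 0.848 FPKM. Both had their highest value in LPA-treated mouse 5. For Bgn, control mouse 2 was close to that value, at 1.97 FPKM, and above LPA-treated mouse 4, at 0.932 FPKM.

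For the fibroblast genes, the log2 fold change between LPA-treated and other MYO5B-knockout mice was 2.52 for Adamdec1 (95% interval 0.86 to 4.18, limma's unadjusted p = 0.00682), 2.09 for Thy1 (0.45 to 3.73, limma's unadjusted p = 0.0173) and 1.45 for Vim (-0.20 to 3.10, limma's unadjusted p = 0.0794), each with an adjusted p of 1. Without MYO5B-knockout mouse 3, whose library was the lowest for all 3 genes, the value for Vim was 0.71. For Lyve1 the log2 fold change was -0.86 (95% interval -2.44 to 0.72) and for Pecam1 it was 1.21 (-0.23 to 2.65), and the smooth muscle genes Tagln and Acta2 gave 0.11 (-0.65 to 0.87) and 0.89 (-1.24 to 3.02), with an adjusted p of 1 for each of the 4.

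**Figure D3:**
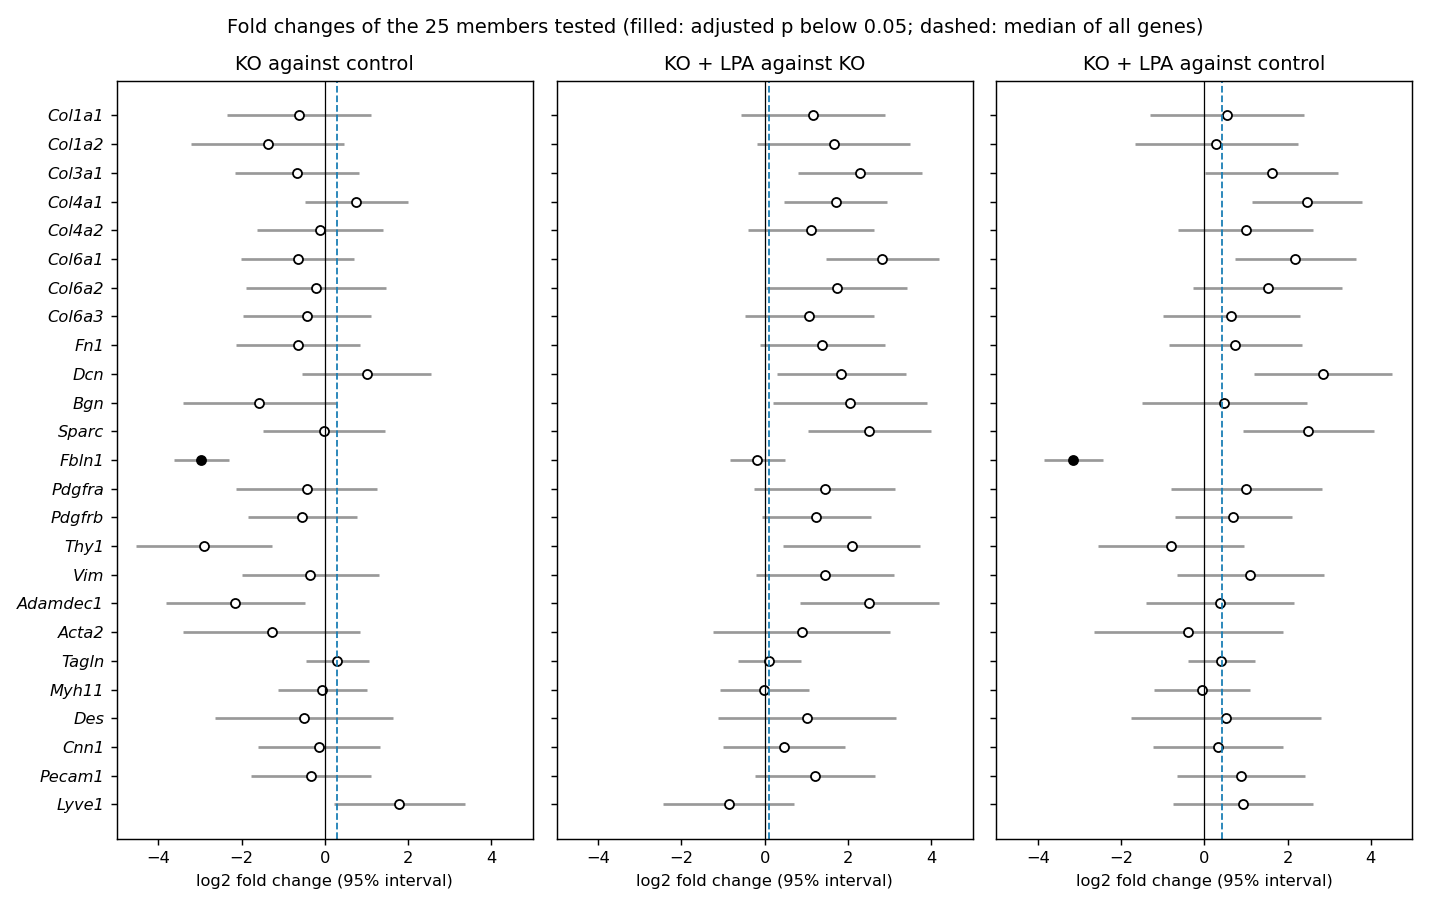
Log2 fold change (circles) with its 95% interval (lines) of the 25 genes tested, in each of the 3 comparisons. The filled circles, which passed an adjusted p of 0.05, are those of Fbln1 at -2.97 and -3.15, and the blue dashed lines are the medians of all 15729 genes, at 0.29, 0.11 and 0.41.

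Markers of enteric neurons and glia, cells of the plexuses below the mucosa whose glia reach into the lamina propria, had the same high libraries. Summed over 10 markers their level was 20.1 and 24.4 FPKM across LPA-treated mice 4 and 5, 1.68 FPKM in LPA-treated mouse 1, 1.41 to 3.31 FPKM in the control mice and 2.36 to 6.03 FPKM in the MYO5B-knockout mice. Of the 7 markers tested, all 7 had a log2 fold change above 0 between LPA-treated and other MYO5B-knockout mice, with a median of 1.62 and 0 past the adjusted threshold, and 5 had their 2 highest values in LPA-treated mice 4 and 5. The glial gene Gfap reached 2.53 FPKM there, and Sox10, a defining factor of enteric glia, had at most 20 reads. Whether the amount of lamina propria in a preparation contributed to the values of the 37 genes was not tested, and with these groups an effect of LPA on the tissue and on what was isolated cannot be told apart.

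**Figure D4:**
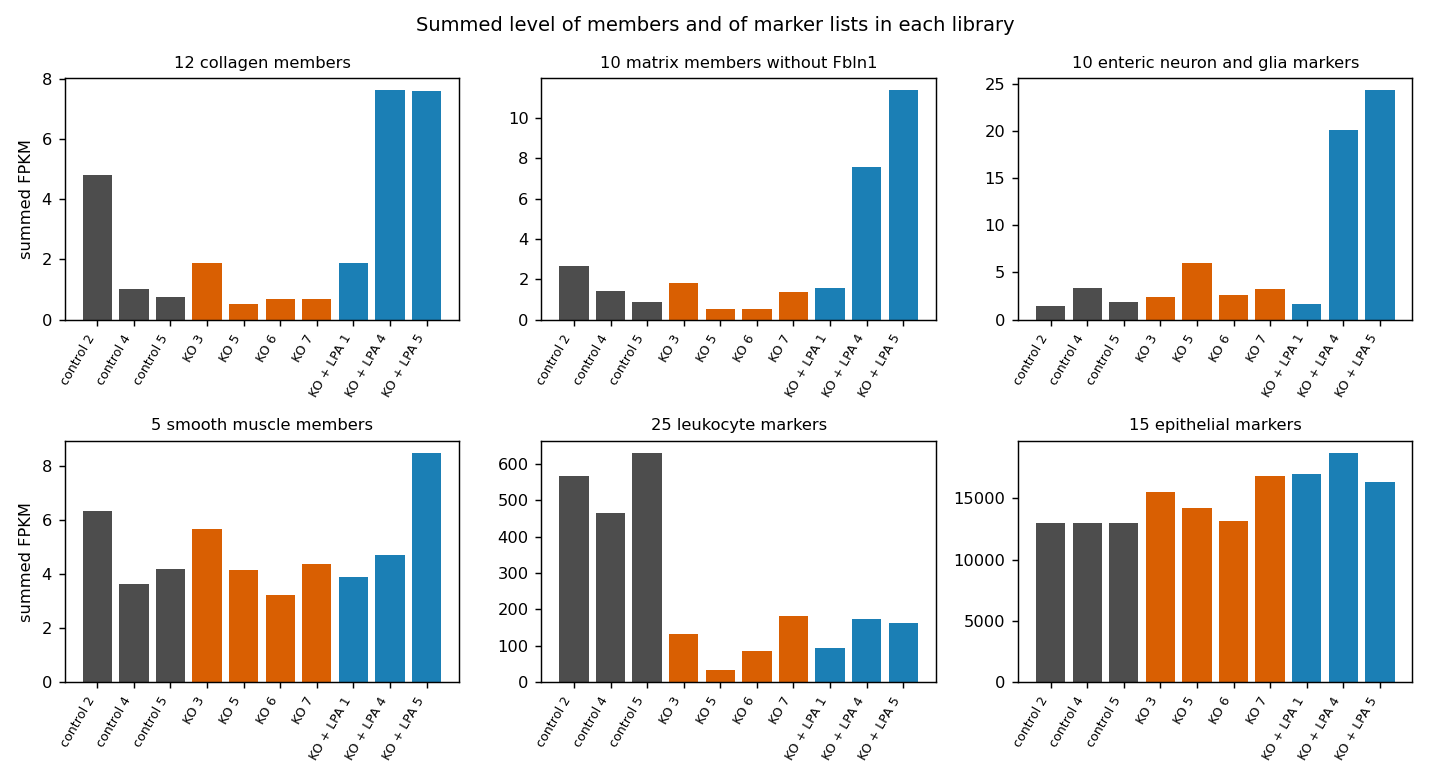
Summed FPKM (bars, axes from 0) of 3 sets of the genes described and of 3 marker lists in each library, grey for control, orange for MYO5B-knockout (KO) and blue for LPA-treated mice. The collagen sum, the matrix sum without Fbln1 and the enteric sum are highest in LPA-treated mice 4 and 5. The leukocyte sum is highest in the 3 control mice, and the epithelial sum lies between 12959 and 18746 FPKM throughout.

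LPA-treated MYO5B-knockout and control mice share neither tamoxifen nor MYO5B status. Between these groups, Fbln1 was again the only gene of the 25 tested that passed the adjusted threshold of limma. Its log2 fold change was -3.15 ± 0.32 (SE, limma's adjusted p = 0.00111). This comparison uses the same control libraries as that of the other MYO5B-knockout mice. Of the 25 genes tested, 1 passed an adjusted p of 0.05, against 2.32% of all genes (1.54% higher and 0.776% lower). Groups did not overlap for 6 genes on the higher side (Col4a1, Col6a1, Dcn, Sparc, Tagln and Vim) and 2 on the lower side (Fbln1 and Thy1), where 20.5% and 6.38% of all genes lay. The median log2 fold change of the 25 genes was 0.69, with 21 above 0, and that of all genes was 0.41, with 69.5% above 0. The median of the 25 genes was 0.33 without LPA-treated mouse 5 and 1.26 without control mouse 2. It was 1.26 as well with control mouse 2 and MYO5B-knockout mouse 3 left out, when that of all genes was 0.13, and 1.15 with MYO5B-knockout mouse 3 and LPA-treated mouse 1 left out. After median-ratio scaling these medians were 0.41 and 0.10, with 221 of all genes called higher and 269 lower against 243 and 122 without it, and after quantile normalization they were 0.20 and 0.053.

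The matrix genes nearest to the threshold in this comparison were Col4a1, at 2.47 ± 0.60 on the log2 scale (SE, limma's adjusted p = 0.0638), Dcn at 2.85 ± 0.75 (limma's adjusted p = 0.0835), Sparc at 2.49 ± 0.71 (limma's adjusted p = 0.107) and Col6a1 at 2.18 ± 0.66 (limma's adjusted p = 0.128). Their control libraries held few reads, 10 in all for Col4a1, 5 for Dcn, 42 for Sparc and 28 for Col6a1. Without control mouse 2 and MYO5B-knockout mouse 3, 5 of the genes passed the adjusted threshold of limma, namely Fbln1 (-3.35), Col4a1 (2.28), Col4a2 (1.62), Col6a1 (2.60) and Col6a2 (2.42). In that fit 1346 of all 15729 genes passed (678 higher and 668 lower), against 365 with all libraries. Without MYO5B-knockout mouse 3 and LPA-treated mouse 1, 5 also passed, namely Fbln1 (-3.25), Col4a1 (2.71), Col6a1 (2.84), Dcn (3.58) and Sparc (3.32), when 304 of all genes passed. With single mice left out, Col4a1 passed without MYO5B-knockout mouse 3 (limma's adjusted p = 0.0148) and Sparc without LPA-treated mouse 1 (limma's adjusted p = 0.0417). Of all genes, 702 and 126 passed in these 2 fits. DESeq2 on the recovered reads called Fbln1, Col4a1, Dcn and Sparc, among 1503 called of all 15729 genes, against 365 with limma. The log2 fold changes of Vim, Col3a1, Thy1, Adamdec1, Lyve1 and Pecam1 were 1.10, 1.62, -0.81, 0.37, 0.93 and 0.88, with limma's adjusted p between 0.298 and 0.847.

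Of the genes with a median of at most 3 reads, Mfap5, which encodes a microfibril glycoprotein, had 0 reads in all 10 libraries. Lum, which encodes the proteoglycan lumican, had 2 reads in control mouse 4, 1 in MYO5B-knockout mouse 7, 2 and 7 in LPA-treated mice 4 and 5, and 0 elsewhere. Dpt, which encodes the matrix protein dermatopontin, had 1 read in control mouse 5, 1 and 2 in MYO5B-knockout mice 5 and 7, 5 and 6 in LPA-treated mice 4 and 5, and 0 elsewhere. These 3 genes had at most 2 reads in any library outside LPA-treated mice 4 and 5. Postn, which encodes the matricellular protein periostin, had 2 reads each in control mice 4 and 5, 1 and 3 in MYO5B-knockout mice 6 and 7, 4 and 6 in LPA-treated mice 4 and 5, and 0 elsewhere. Lox, which encodes the collagen cross-linking lysyl oxidase, had 1 read in control mouse 2, 8 in MYO5B-knockout mouse 3, 5 and 3 in LPA-treated mice 4 and 5, and 0 elsewhere. The highest count of Lox came from a MYO5B-knockout library.

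The minor fibrillar collagens Col5a1 and Col5a2, which nucleate type I fibrils, had the same high libraries. Col5a1 had 0, 0 and 2 reads in control mice 2, 4 and 5, 2, 0, 4 and 1 in MYO5B-knockout mice 3, 5, 6 and 7, and 9, 16 and 30 in LPA-treated mice 1, 4 and 5. For Col5a2 the reads were 0, 2 and 0 in control mice, 2, 2, 0 and 2 in the MYO5B-knockout mice and 5, 30 and 9 in the LPA-treated mice, in the same order. For both genes every LPA-treated library was above every other library. Col14a1, a fibril-associated collagen, was at 10, 10 and 2 reads in control mice, 0, 3, 1 and 1 in the MYO5B-knockout mice and 0, 13 and 6 in the LPA-treated mice. Cdh5 was at 0, 4 and 2 reads in control mice, 0, 1, 0 and 0 in the MYO5B-knockout mice and 1, 12 and 13 in the LPA-treated mice, and Cnn1 had 0, 6 and 5, then 0, 1, 3 and 14, then 3, 2 and 13. The remaining genes below the filter, Col15a1 and Fbn1, which encode a basement membrane collagen and fibrillin 1, had at most 17 and 24 reads in a library.

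Other genes of the same pathways, listed beside the 37, passed the test in few cases. Of 14 genes of the transforming growth factor beta pathway tested, 1 passed as lower in both comparisons with control, Tgfbi, which encodes a secreted matrix adhesion protein. Its level was 86.2, 129 and 109 FPKM across control mice 2, 4 and 5, 7.23 to 20.8 FPKM in the MYO5B-knockout mice and 10.6 to 14 FPKM in the LPA-treated mice. The log2 fold change was -3.11 in MYO5B-knockout mice (limma's adjusted p = 0.00323) and -3.14 in LPA-treated mice (limma's adjusted p = 0.00328).

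Of 15 matrix receptors tested, 0 passed between MYO5B-knockout and control mice. The hyaluronan receptor Cd44 passed as higher in LPA-treated than in control mice (log2 fold change 1.92, limma's adjusted p = 0.0471). Its level was 1.25 to 2.84 FPKM in control mice, 4.71 to 9.97 FPKM in MYO5B-knockout mice and 5.67 to 8.77 FPKM in LPA-treated mice. Both knockout groups thus lay above the control mice. Of 7 other endothelial genes tested, 1 was higher in LPA-treated than in control mice, Tie1, a receptor tyrosine kinase of endothelium (2.91, limma's adjusted p = 0.0444). No gene passed in any of the 3 comparisons among 15 matrix enzymes and inhibitors, 6 mesenchymal niche signals, 7 ligands of the platelet-derived and vascular endothelial growth factor families and 7 other smooth muscle and pericyte genes. Of 15 epithelial markers, 0 passed between MYO5B-knockout and control mice and 2 were higher in LPA-treated than in control mice, the keratins Krt18 (2.46, limma's adjusted p = 0.0316) and Krt19 (1.43, limma's adjusted p = 0.0483). Of 25 leukocyte markers, 3 were lower in LPA-treated than in control mice (Cd3g, Cd7 and Gzma), and of 4 red blood cell markers and 7 enteric markers 0 passed.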

How the data were processed

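Poly(A)-selected RNA of 10 mice was sequenced. The authors deposited FPKM for 35275 genes (whole-gene values, with no scaling between libraries stated), and the submitters' processing notes name STAR 2.5, TopHat, HTSeq 0.6.1, DESeq2 and GRCm38/mm10. FPKM times gene length gave whole reads for 100% of values (within 0.05 read), and all 63 read counts deposited by the authors for 9 genes equalled the recovered number. The log2 of FPKM + 0.1 was compared for 15729 genes whose mean reached 0.1 FPKM in one limma 3.58.1 model of the 3 groups (trended variance, two-sided, Benjamini-Hochberg), tested on simulated data. Alternatives were other pseudocounts, filters and scalings, edgeR 4.0.16 and DESeq2 1.42.0 on the recovered reads, libraries left out and a replicate block. Deposited pathway enrichments and columns of fold changes and p-values from the authors' own comparisons were not used. Replicates are separate mice. The genes and lists were chosen with earlier results of these data known. Values in every library are given for the 2 genes with the highest mean in each role, genes past the threshold and genes with a median of at most 3 reads. Gene coordinates are those of the deposited table, and 22 of the 37 match GENCODE M21. Intervals cover 95%. Results of a few genes of the accompanying lists are not reported here.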

Additional observations from a re-analysis of the deposited data

Results flagged for a closer look

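In the 4 MYO5B-knockout mice, 1 of the 25 genes examined had a sample far from the others. Col4a2 was present at 0.425 FPKM in mouse 3 and at 0.0379 to 0.0629 FPKM in the other 3 mice, and the gap to the nearest mouse was 0.875 of the whole range on the log2 scale, above Dixon's critical value for 4 samples. The library of mouse 3 is one of the 2 that detected few genes. Chance flags about 1 in 20 genes, and the groups of 3 mice cannot be examined in this way.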

How the results depend on the processing

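The fall of Fbln1 in MYO5B-knockout mice passed the adjusted threshold in all 21 alternatives, and its fall in LPA-treated mice in 21 of 22. The exception was the replicate block for control and LPA-treated mice (log2 fold change -3.46, limma's adjusted p = 0.159), under which 0 of all genes and 0 of the 37 passed and the median of the 25 genes was 1.87. Estimates with this block rest on control and LPA-treated mice 4 and 5 alone, and little is left to estimate the spread. Mouse numbers name mice, deviations correlated at 0.10 for number 4 and -0.36 for number 5, and so the pairing is no more than a shared number. No paired analysis was possible for the other comparisons because their groups share only the number 5. Of the 37 genes, 2 passed between MYO5B-knockout and control mice with a pseudocount of 1, median-ratio scaling or quantile normalization, and 4 with DESeq2, which called 1 between LPA-treated and other knockout mice and 4 against control. Without control mouse 2 and MYO5B-knockout mouse 3, or without MYO5B-knockout mouse 3 and LPA-treated mouse 1, 5 passed between LPA-treated and control mice, and 1 to 2 with single mice left out. The median of the 25 genes was -1.36 with edgeR and -1.35 with DESeq2 between MYO5B-knockout and control mice. Between LPA-treated and other knockout mice it was 0.40 with a pseudocount of 1, 2.00 with 0.01, and 2.16 without MYO5B-knockout mouse 3 and LPA-treated mouse 1. Of all genes, between MYO5B-knockout and control mice 188 passed with no filter, 598 with median-ratio scaling, 804 with quantile normalization, 50 in a fit of the 2 groups alone, 1854 with DESeq2, 778 without control mouse 2 and MYO5B-knockout mouse 3, and 44 to 403 with single mice left out, against 316. Between LPA-treated and control mice, 626 passed with quantile normalization, 190 in a fit of the 2 groups alone, 1503 with DESeq2, 1346 without control mouse 2 and MYO5B-knockout mouse 3, and 73 to 702 with single mice left out, against 365. DESeq2 called 6 between LPA-treated and other knockout mice. Genes that passed in no setting of a comparison changed sign as follows. Between LPA-treated and control mice, Acta2 was 0.12 and 0.57 without these pairs of libraries and 1.08 with the replicate block, and Col1a2 was -0.029 with median-ratio scaling, -0.085 with quantile normalization and -0.85 with edgeR. Between MYO5B-knockout and control mice, Col4a2 was 0.017 with a pseudocount of 0.01. Without control mouse 2 and MYO5B-knockout mouse 3 it was 0.052 and Col6a2 was 0.41. Sparc was 0.0033 with a pseudocount of 1, Tagln -0.016 with quantile normalization, and Vim 0.38 without MYO5B-knockout mouse 3 and LPA-treated mouse 1. With single mice left out, the range between LPA-treated and control mice was -1.10 to 0.57 for Acta2, -0.20 to 1.21 for Adamdec1 and -0.37 to 1.28 for Col1a2. Between MYO5B-knockout and control mice it was -0.64 to 0.51 for Col4a2, -0.69 to 0.69 for Col6a2, -0.76 to 0.27 for Pecam1, -0.27 to 0.10 for Sparc and -0.81 to 0.38 for Vim. The causes were not tested. With 26 of the 37 genes under a median of 20 reads, depth limits what can be detected.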
